A study of Mus musculus with 18 samples.

Results

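Unmodified and control-hairpin liver tumours of high-fat-fed mice were set side by side, which made 9 libraries of the 18 in the series. MC38 is a mouse colon carcinoma line, and the metastases were seeded by injecting tumour cells into the spleen, from which they reach the liver by the portal vein. The 5 HFD libraries come from tumours of high-fat-fed mice whose genotype is labelled WT, with no hairpin named. The 4 shCon libraries come from high-fat-fed mice whose tumours are labelled shControl, a control hairpin, and the mice are titled WT as well. Both groups thus share the diet, the injected line, the route and the tissue, and total RNA of tumour tissue was sequenced in both. The remaining libraries, LFD (low-fat diet, no hairpin, n = 5) and shYap (high-fat diet with a hairpin against Yap, n = 4), serve here only as the other group of each table. HFD stands with LFD in one deposited table and shCon with shYap in another, and the tables were quantified separately. Table, hairpin and group therefore cannot be told apart, no test was run across the tables, and nothing below is credited to the hairpin. No label gives the age or sex of the mice, says whether each library is from an animal of its own, or says how the hairpin line was made.

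A liver metastasis taken as bulk tissue holds several kinds of cell. Besides the carcinoma cells there are fibroblasts that lay down collagen, blood vessels, macrophages and lymphocytes that have entered the tumour, and remnants of the liver at its edge. The liver brings hepatocytes, which secrete most plasma proteins, Kupffer cells, which are its resident macrophages, and a specialised sinusoidal endothelium. Osteopontin (Spp1) and the S100 proteins are secreted or calcium-binding proteins of motile tumour cells and macrophages. YAP and TAZ (Wwtr1) are transcriptional coactivators held in check by the Hippo kinase cascade.

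Libraries held 18057368 to 18474191 estimated counts in HFD and 19077033 to 21309950 in shCon. The tables had 21931 gene symbols in common, which took at least 99.98% of the counts of each library, and levels are given as counts per 1000000 counts of these symbols (CPM). In all, 15298 genes averaged at least 1 CPM over the 2 group means. Of 649 genes on 51 lists, 630 were in both tables and 570 averaged at least 1 CPM. A gene is called higher or lower when the values of the 4 shCon libraries and the 5 HFD libraries did not overlap and the ratio of the group means, each with 0.5 CPM added, was at least 2. By this rule 1133 genes (7.41%) were higher and 599 (3.92%) lower in shCon than in HFD. Each count of called list members below should be read beside these shares. Without the 2-fold limit, 2194 genes (14.3%) lay above and 5638 (36.9%) below the HFD range, 51.2% in either direction. Ratios below are log2 of shCon over HFD. Their median over all 15298 genes was -0.19, and every ratio below should be read beside it. With TMM factors in place of the plain total, the median was -0.03 and the counts were 1385 higher and 353 lower. RLE factors gave 1425 and 329, so the share of called genes that were higher was 65.4% in the plain total and 79.7% and 81.2% with these factors.

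**Figure D1:**
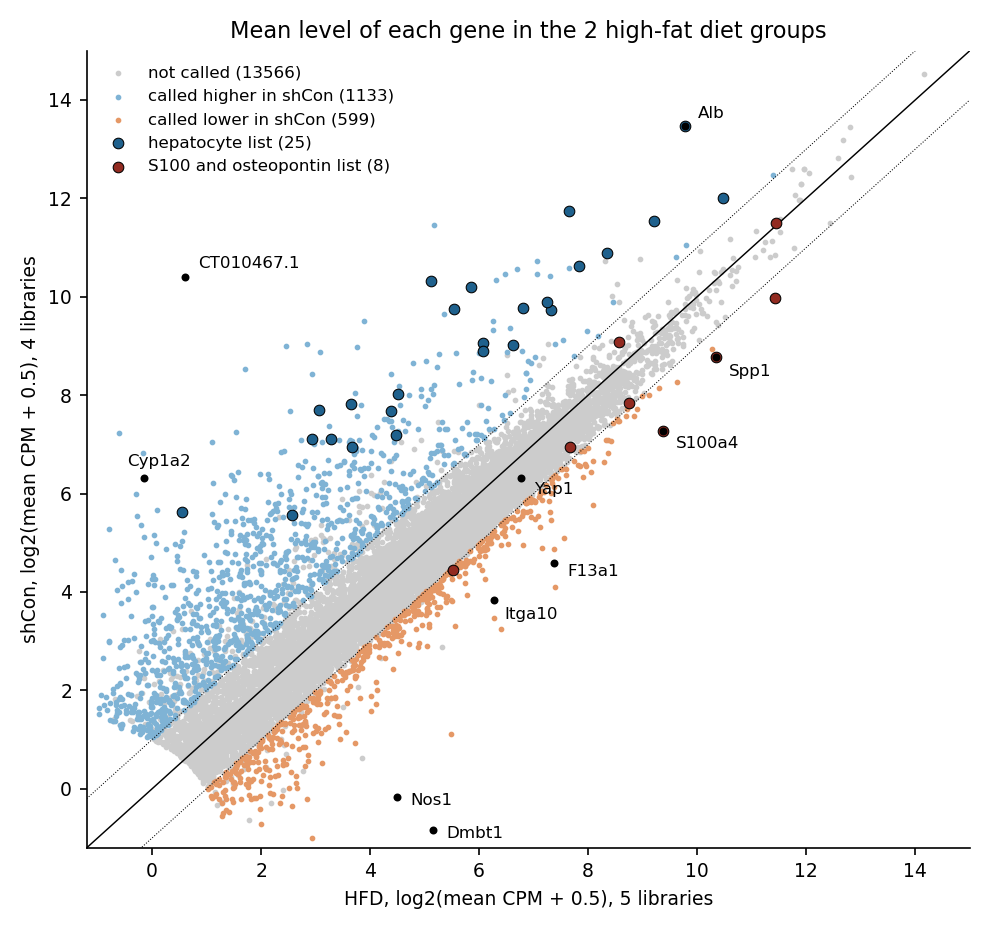
Each point is 1 of 15298 genes, with log2(mean CPM + 0.5) of the 5 HFD libraries on the x axis and of the 4 shCon libraries on the y axis. The solid line marks equal levels and the dotted lines a 2-fold ratio. All 25 hepatocyte genes lie above the upper dotted line, while S100a4, Spp1, Nos1, Itga10 and F13a1 lie below the lower one.

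Profiles of the 2 groups were less alike than those of replicates. Across the 15298 genes Spearman's rho was 0.979 to 0.996 between HFD libraries, 0.952 to 0.992 between shCon libraries and 0.855 to 0.946 between the groups, with a median of 0.918 over 20 pairs. The shCon libraries were nearer to the LFD libraries of the other table (median 0.9502, range 0.858 to 0.968) than to the HFD libraries, and nearest to shYap (median 0.964). The lowest values joined shCon replicate 4 with HFD replicates 3, 4 and 5, and shCon replicate 4 also stood apart in its own group, at 0.952 to 0.973. HFD replicates 1 and 2, and 3 and 4, were closer to each other than other pairs (chi-square over degrees of freedom 6.64 and 5.53, against 12.02 to 29.7), though above sampling noise. These correlations are across genes within pairs of libraries, so they carry no p, and genes are not independent replicates. Leaving out the genes of the 5 hepatocyte lists kept 15233 of the 15298 genes and gave a median of 0.922 between the groups. Other genes of the liver stayed in, so the part of liver RNA in these correlations was not tested. Of the 100 genes with most counts in a library, 61 to 82 were shared between an HFD and a shCon library, against 88 to 95 between HFD libraries and 71 to 92 between shCon libraries.

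**Figure D2:**
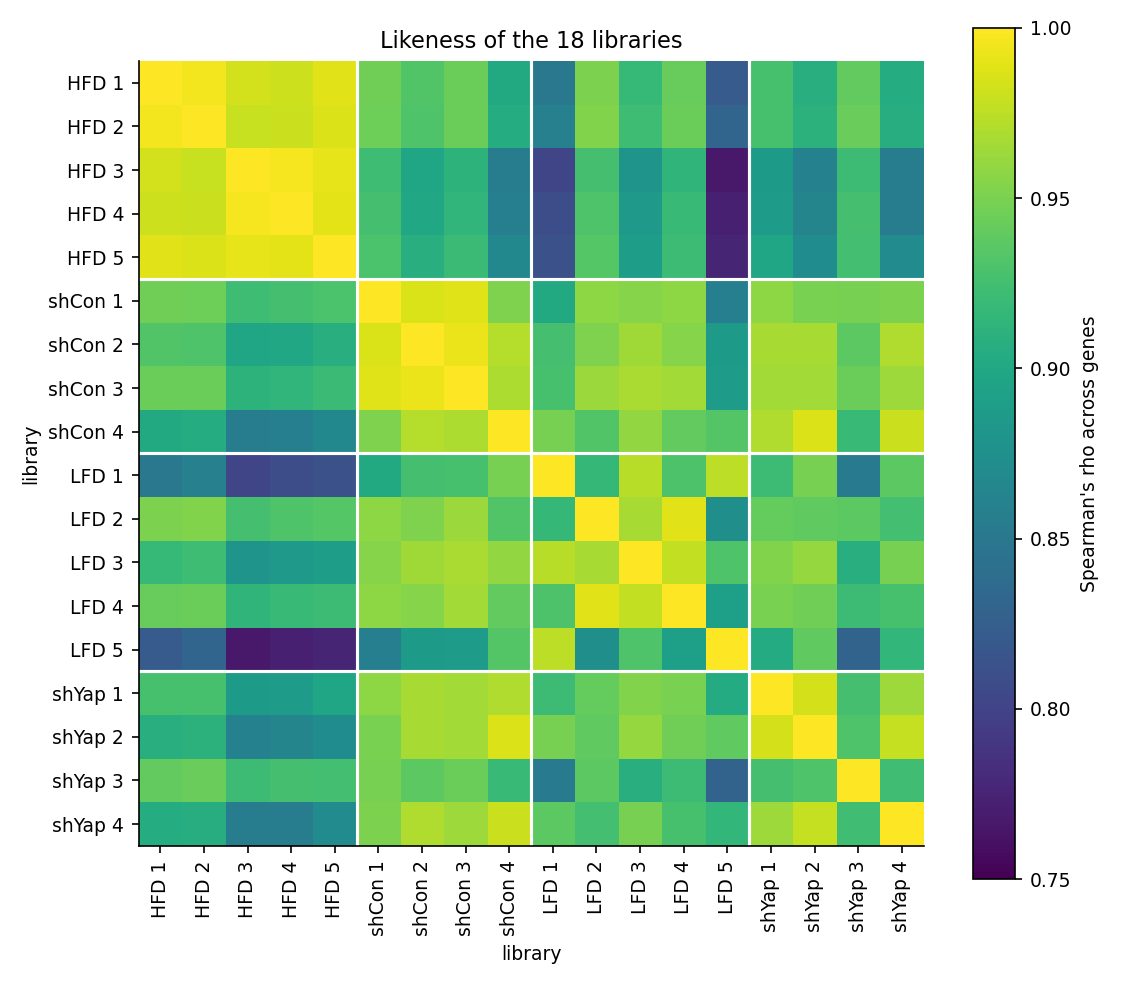
Spearman's rho across 15298 genes for each pair of the 18 libraries, with white lines between the groups HFD, shCon, LFD and shYap. The HFD block reads 0.979 to 0.996, and the strip that joins HFD with shCon reads 0.855 to 0.946.

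In many of the called genes the HFD libraries stood apart from all others. In 597 of the 1133 higher genes (52.7%) all 5 HFD libraries lay below all 13 others, LFD included, and in 332 of the 599 lower genes (55.4%) they lay above all 13. All 8 shCon and shYap libraries lay on one side of all 10 HFD and LFD libraries in 70 of the higher genes and 34 of the lower ones. Over all 15298 genes that split by table held for 180 genes upwards (1.18%) and 212 downwards (1.39%). Among the same called genes, the shCon libraries alone lay above all 14 others in 26 and below them in 6. The called genes were picked for non-overlap of HFD and shCon, which fixes part of these counts. For HFD alone or shCon alone, the share over all 15298 genes was not computed, so these counts cannot be ranked against the split by table.

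Hepatocyte genes were far more abundant in the shCon tumours. In shCon 21 of 25 were higher and 0 lower, against 7.41% and 3.92% of all genes, and the median log2 ratio was 3.28. Their CPM summed to 8307, 9333, 1416, 1649 and 2033 in HFD replicates 1 to 5 and to 15408, 35327, 31265 and 55809 in shCon replicates 1 to 4. The groups did not overlap, although the HFD libraries fell into replicates 1 and 2 with more and replicates 3 to 5 with less of this RNA, and shCon replicate 1 had the least and replicate 4 the most of its group. The sums were 16401 to 97875 in LFD and 19512 to 85052 in shYap, so 3 of the 4 shCon values lay within the range of both other groups and replicate 1 just under them. In bulk tissue, fewer hepatocytes and less RNA per hepatocyte cannot be told apart, and the amount of adjoining liver in each piece was not tested.

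Albumin (Alb, chr5:90460897-90476602, plus strand, build GRCm38), the main plasma protein made by hepatocytes, stood at 1581, 2050.1, 184, 206 and 365 CPM in the HFD libraries and 4506, 11400.3, 10651 and 18868 in the shCon libraries. Even the highest HFD library was below the lowest shCon library, and the ratio of means was 12.9. By count, albumin ranked 28 to 917 among all genes of an HFD library and 2 to 16 in a shCon library. Apolipoprotein A1 (Apoa1), the main protein of high-density lipoprotein, had 373, 441, 35.9, 45.4 and 102 CPM in HFD and 2223, 3959, 3173 and 4448 in shCon, 17.3 times as much on average. Cyp2e1, a cytochrome that oxidises ethanol and small solvents, was at 50.4, 60.2, 18.5, 23.9 and 18.3 CPM in HFD and 1049, 1199, 1230.2 and 1613 in shCon. The groups lay 36.6-fold apart, more than the spread within either. Transthyretin (Ttr), the carrier of thyroid hormone, and the fatty acid binding protein Fabp1 had log2 ratios of 4.36 and 4.17. The genes not called were Apob, Hpx, Trf and Cps1, with ratios of 2.42, 2.55, 1.53 and 2.71, each because shCon replicate 1 fell within the HFD range. Transferrin (Trf) shows this: its values were 2467, 2789, 587, 624 and 633 CPM in HFD and 1339, 3696, 3317 and 8088 in shCon, with shCon replicate 1 below HFD replicates 1 and 2.

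The transcription factors that keep hepatocyte identity followed the secreted proteins. In shCon 11 of 13 were higher, with a median of 2.55. Hnf4a, the central regulator of hepatocyte genes, was at 29.2, 29.4, 5.63, 6.37 and 7.58 CPM in HFD and 53.5, 102, 82.8 and 224 in shCon. The bile acid receptor Nr1h4 was at 7.36, 10.3, 2.10, 2.60 and 2.60 CPM in HFD and 23.3, 29.3, 24.2 and 31.7 in shCon. In both genes the groups did not overlap, and for Nr1h4 the shCon libraries were within a narrow band. Onecut1 and Prox1 were not called, with ratios of 2.91 and 1.96.

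Hepatocytes differ along the lobule, and both ends were represented. Among pericentral genes, expressed near the central vein, 4 of 7 were higher, and among periportal genes 4 of 7. Cyp1a2, a drug-metabolising cytochrome of pericentral cells (chr9:57676937-57683703, minus strand), had 0.491, 0.658, 0.276, 0.388 and 0.217 CPM in HFD and 80.6, 76.2, 64.8 and 93.6 in shCon. Its HFD values were near the detection limit in every library, with 9, 12, 5, 7 and 4 counts, whereas the shCon values differed little among themselves. Glutamine synthetase (Glul), the classical enzyme of the last cells around the central vein, was at 137, 139, 118, 126 and 127 CPM in HFD and 360.4, 431, 417 and 535 in shCon. HFD libraries were nearly level for Glul, unlike for albumin. The periportal cytochrome Cyp2f2 had 3.33, 3.12, 0.165, 0.831 and 0.920 CPM in HFD and 39.9, 70.2, 49.2 and 137 in shCon. Gluconeogenic Pck1 had a ratio of 2.33, the histidine-degrading Hal 2.98, and the lipid droplet protein Hsd17b13 2.38. Cathepsin C (Ctsc), which immune cells also express, overlapped between the groups (0.18).

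Acute phase proteins, which the liver secretes in inflammation, were less clearly apart. In shCon 4 of 13 were called higher, namely Saa3, Saa4, Crp and Hamp, while the median of the list was 1.87. Hepcidin (Hamp), the hormone that limits iron uptake, was at 8.89, 11.3, 0.827, 0.831 and 4.60 CPM in HFD and 97.7, 162, 194 and 367 in shCon. Haptoglobin (Hp), which binds free haemoglobin, overlapped: 529, 681, 97.3, 118 and 154 in HFD and 681, 1772, 1362 and 2965 in shCon. Without shCon replicate 1, 9 of the 13 genes were higher. Saa3 also split all 18 libraries by table. Iron-binding lipocalin Lcn2 was at 25.7 to 219.6 CPM in HFD and 59.2 to 659 in shCon.

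Xist was near 0 in both groups, unlike in LFD. Xist, the RNA that coats the inactive X chromosome in female cells, was at 0.109, 0.055, 0.165, 0.277 and 0.325 CPM in HFD and 0.105, 0, 0 and 0.094 in shCon, against 101 ± 25.7 (SD, n = 5) in LFD. The Y-linked genes Ddx3y, Eif2s3y, Kdm5d and Uty together had 27.1, 35.6, 25.2, 33.6 and 25.6 CPM in HFD and 43.5, 34.7, 45.8 and 46.6 in shCon, against 38.7 to 91.2 in LFD. Eif2s3y and Kdm5d lay above the HFD range in shCon, with ratios of 0.53 and 0.70, and none of the 4 was called. Of genes that are higher in male than in female liver, 9 of 10 were higher and 0 lower, against 7.41% and 3.92% of all genes. Their median was 3.83. The list summed to 284, 369.5, 45.8, 43.7 and 93.2 CPM in HFD and 1034, 1606, 1399.9 and 4492 in shCon. Among its members the steroid hydroxylase Cyp2d9 was at 3.36 to 29.6 CPM in HFD and 146 to 345 in shCon. The bile salt and steroid carrier Slco1a1 was at 0.110 to 0.603 CPM in HFD and 18.1 to 61.2 in shCon. Slco1a1, Elovl3 and Hsd3b5 had means under 1 CPM in HFD and passed the filter of 1 CPM only through shCon. The share called in this list is thus partly set by the filter. The female-biased list summed to 0.221 to 0.541 CPM in HFD, 2.29 to 6.76 in shCon and 374 to 719.8 in LFD. In LFD replicates 1 to 5 the male-biased list summed to 3958, 183, 1467, 68.7 and 3576 CPM, so LFD was not uniform in it. In HFD and shCon the male-biased sums moved with the hepatocyte sums of the same libraries, and the part of adjoining liver in them was not tested.

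Lipid genes were called higher in part. Of 20 genes of cholesterol synthesis and its control, 7 were higher and 0 lower, against 7.41% and 3.92% of all genes, with a median of 0.88. Sc5d, which carries out a late step of sterol synthesis, was at 41.4, 47.2, 32.5, 35.2 and 35.3 CPM in HFD and 60.1, 105, 102 and 241 in shCon, and Fdft1 (squalene synthase) at 23.8, 23.6, 22.7, 20.1 and 23.0 CPM in HFD and 44.6, 67.6, 57.4 and 110.0 in shCon. Each shCon library was above all HFD libraries, and shCon replicate 4 was the highest for both. Without that library 4 of the 20 were called, and without shCon replicate 1, the lowest, 11. Fatty acid synthesis gave 2 of 14 called higher, Thrsp and Fads2, against 7.41% of all genes. Without shCon replicate 1 it gave 4. The desaturase Scd1 was at 347, 359, 356, 347 and 326 CPM in HFD and 226, 306, 308 and 3285 in shCon, so that replicate 4 alone lay above HFD and replicates 1 to 3 below. Its isoenzyme Scd2, the form of non-hepatic tissue, lay below the HFD range in all 4 shCon libraries (631 to 686 CPM in HFD and 382 to 539 in shCon, ratio -0.54).

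Fatty acid oxidation was higher in 4 of 13 genes, against 7.41% of all genes. Ehhadh and Acaa2 were among the 4, with ratios of 1.53 and 1.08. Cpt1a, the gate for entry of long-chain fatty acids into mitochondria, lay the other way, at 276, 304, 226, 213 and 282 CPM in HFD and 139, 156, 137 and 195 in shCon, with no overlap and a ratio of -0.73. Without shCon replicate 4, Acaa2 was no longer higher and Pdk4, the kinase that shuts off pyruvate oxidation, was lower. Hadha, of the mitochondrial trifunctional enzyme, overlapped (0.08).

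**Figure D3:**
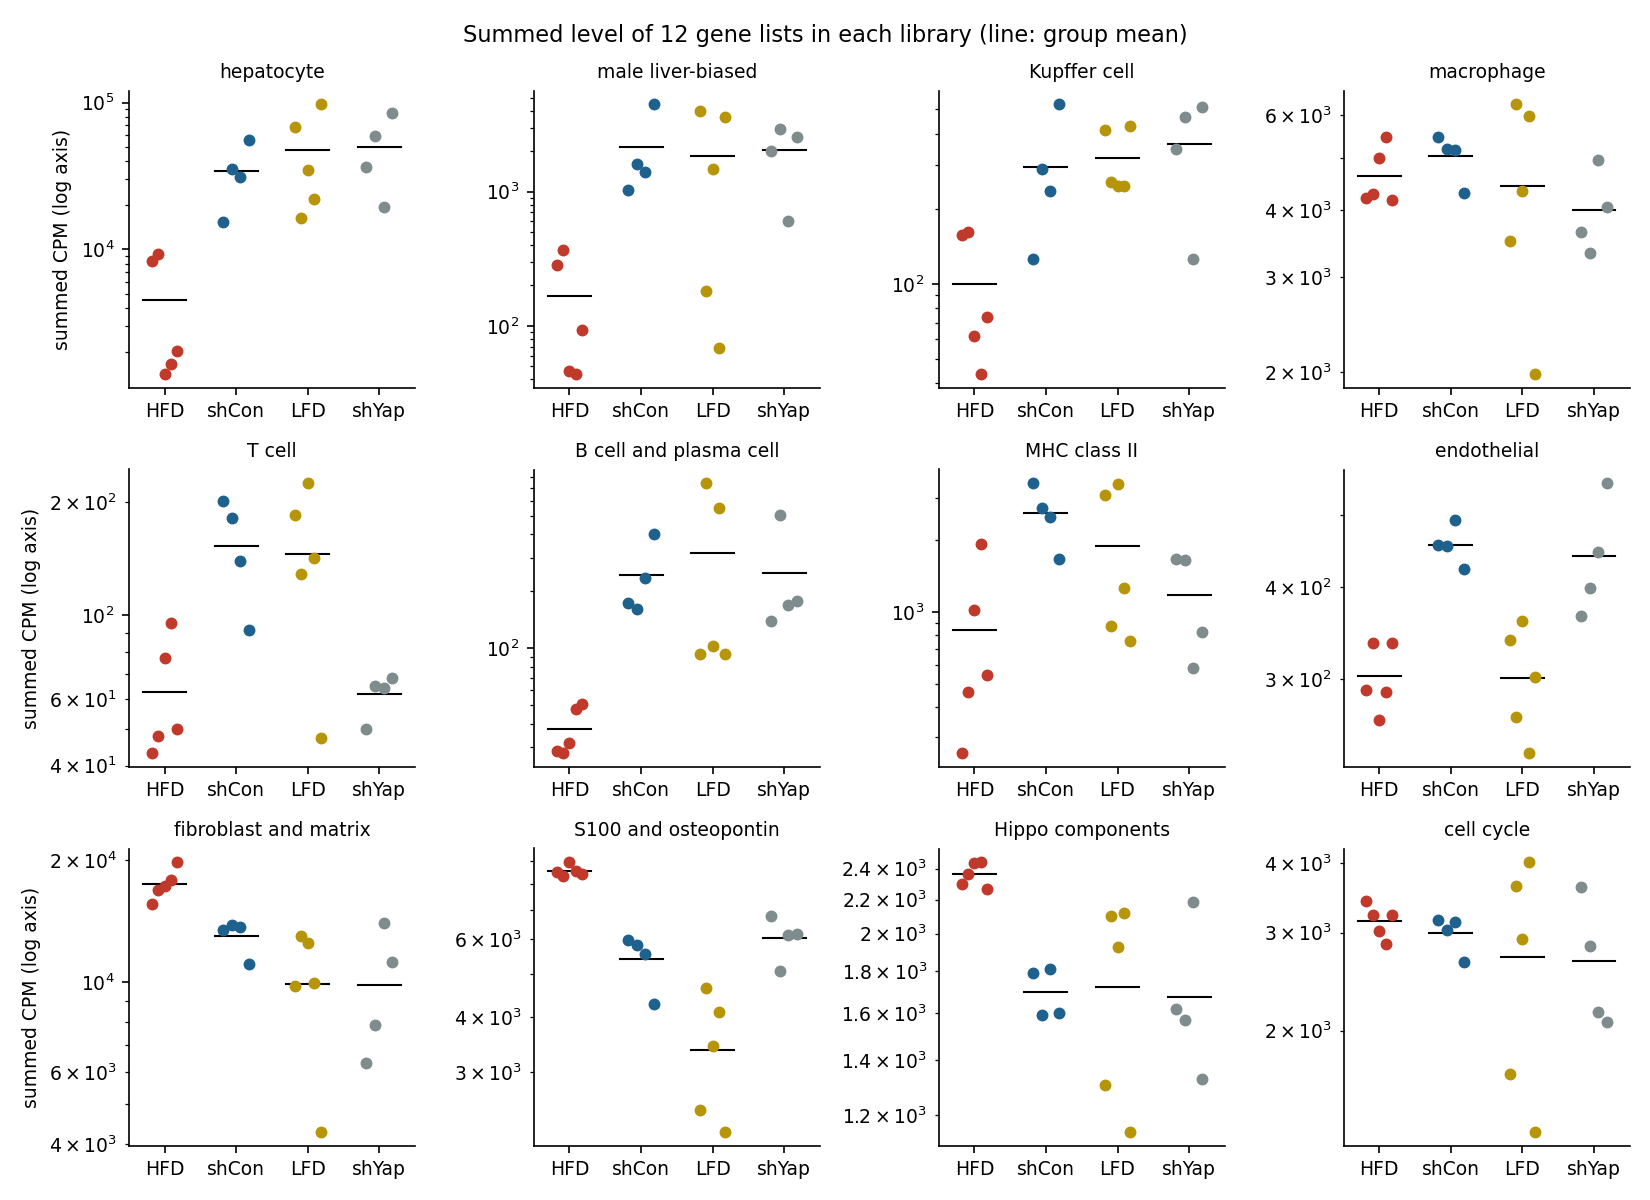
Summed CPM, on log axes, of 12 gene lists in each library of HFD, shCon, LFD and shYap, with a line at each group mean. Hepatocyte and B cell sums of the 4 shCon libraries lie above all 5 HFD values, fibroblast, S100 and Hippo sums lie below, and macrophage and cell cycle sums overlap.

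Among immune lists, B lineage genes were called in the largest share. Of the 8 genes that averaged at least 1 CPM over the 2 group means, 7 were higher, with a median of 1.69. The list summed to 28.7, 27.9, 31.7, 47.6 and 51.0 CPM in HFD and 174, 161, 235 and 404 in shCon. The heavy chain Ighm, carried by naive B cells and IgM plasma cells, was at 16.6, 14.8, 17.2, 27.7 and 32.9 CPM in HFD and 96.7, 84.7, 137 and 118 in shCon. The kappa light chain Igkc was at 1.09, 2.90, 1.16, 2.71 and 4.55 CPM in HFD and 36.8, 37.8, 49.7 and 223 in shCon, and the joining chain Jchain of secreting cells at 0.109, 0.877, 0.165, 0.775 and 0.758 CPM in HFD and 3.72, 3.72, 7.16 and 15.2 in shCon. In shCon replicate 4 Igkc and Jchain were well above the other 3, whereas Ighm was not. Pax5, the B cell identity factor, was at 0.217 to 0.554 CPM in HFD and 1.502 to 3.09 in shCon, and the inhibitory receptor Cd22 at 4.44 to 9.58 CPM in HFD and 10.3 to 21.5 in shCon. The exception was the receptor chain Cd79a (1.45), where shCon replicate 1 fell just under HFD replicate 5. Jchain and Pax5, under 1 CPM in every HFD library, passed the filter only through shCon, and 6 of the 14 list genes did not pass it. So did the called heavy chain Ighd, whose HFD mean was under 1 CPM. Its ratio was 1.74, and 2.46 with 0.1 CPM added. The share called in this list is thus partly set by the filter.

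T cell genes were called higher in 5 of 20 cases, against 7.41% of all genes: Cd4, Lck, Zap70, Icos and Foxp3. The median of the list was 1.35, and no member was below the HFD range. Cd4, the co-receptor of helper T cells, was at 1.47, 1.97, 2.43, 3.38 and 1.68 CPM in HFD and 11.1, 7.63, 5.45 and 6.15 in shCon, and Foxp3, the factor of regulatory T cells, at 0.436, 0.603, 0.662, 1.33 and 1.30 CPM in HFD and 5.19, 2.89, 2.39 and 1.97 in shCon. Cytotoxic T cells are marked by Cd8a, which was at 2.89, 5.10, 9.27, 13.7 and 4.44 CPM in HFD and 25.3, 22.5, 15.1 and 5.68 in shCon and overlapped. HFD replicate 4 was the highest HFD library in all 3 genes, and shCon replicate 4 was the lowest shCon library for Foxp3 and Cd8a. Without shCon replicate 4 the call reached 15 of the 20 T cell genes, and without HFD replicate 4 it reached 13. With TMM and RLE factors it was 8 and 10.

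Genes of cytotoxic and natural killer cells spread in a similar way, with 2 of 14 called (Ccl5 and Gzma), 13 without shCon replicate 4 and 6 without HFD replicate 4. TMM and RLE factors gave 5 and 6. Ccl5, a chemokine of activated T cells, was at 7.20, 5.26, 11.9, 12.5 and 7.04 CPM in HFD and 49.2, 48.3, 34.7 and 20.3 in shCon. Il2rb, a chain of the interleukin receptors of these cells, was at 7.52, 8.44, 18.9, 22.3 and 9.91 CPM in HFD and 83.9, 63.2, 44.5 and 20.3 in shCon, so that shCon replicate 4 fell between HFD replicates 3 and 4. Checkpoint genes were called in 0 of 9 cases, with a median of 0.15. Without HFD replicate 4, 1 was called and without shCon replicate 4, 2. The ligand Cd274 (PD-L1) was at 11.3, 13.9, 19.97, 21.3 and 14.2 CPM in HFD and 36.8, 21.6, 15.8 and 10.7 in shCon, overlapping widely.

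Antigen presentation by MHC class II depended on single libraries as well. H2-Aa, a chain of the peptide-presenting molecule, was at 41.0, 84.5, 168, 377 and 93.4 CPM in HFD and 758, 561, 485 and 289 in shCon. HFD values spread widely, and HFD replicate 4 was above shCon replicate 4. Of 7 class II genes 1 was called, H2-DMb1 (1.28), but all 7 were when either of these replicates was left out, and 5 with TMM or RLE factors. The median of the 7 ratios was 1.28. Class I genes, which nearly all cells carry, overlapped in every one of 9 cases, with a median of 0.50.

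Macrophage genes were the counterexample among leucocytes, with 0 of 19 called higher and 0 lower and a median of -0.01. Lysozyme (Lyz2) was at 828, 954, 1163, 1277 and 787 CPM in HFD and 979, 1051, 988 and 880.4 in shCon, and the growth factor receptor Csf1r at 362 ± 41.9 CPM in HFD and 360.1 ± 20.005 in shCon (SD, n = 5 and 4). Only Cd68, with a ratio of 0.77, and Fcgr1 lay above the HFD range, and Mrc1 and Msr1 lay below it. Without shCon replicate 4, 1 macrophage gene, Ms4a7, was called higher. With TMM and RLE factors the mean log2 level of the list did not overlap and was higher by 0.29 and 0.32, against 0.12 with overlap in the plain total, where the median of the members' ratios has the other sign.

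Of 10 Kupffer cell genes 3 were called, Timd4, Slc40a1 and C6, with a median of 1.81, and the sum of the list overlapped. Clec4f, a lectin nearly specific to Kupffer cells in mice, was at 14.8, 14.03, 1.54, 1.495 and 3.36 CPM in HFD and 13.6, 38.2, 25.3 and 53.4 in shCon, so shCon replicate 1 was within the HFD range. Timd4, the receptor for dying cells, was at 0.872, 1.10, 0.276, 0.222 and 0.541 CPM in HFD and 1.94, 2.74, 2.43 and 9.01 in shCon. Folr2, Cd163 and Fcna, which other tissue macrophages also express, had ratios of -0.40, -0.57 and -0.16. Without shCon replicate 1, 7 of the 10 were called. Clec4f and Timd4 went with the hepatocyte sums of the same libraries, which were lowest in HFD replicates 3 to 5 and in shCon replicate 1, and the part of adjoining liver in them was not tested. Complement C6, the called member with the largest ratio (3.11), is made by hepatocytes too.

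Neutrophil genes were higher in 6 of 15 cases, against 7.41% of all genes, with a median of 1.25, but the sum of the list overlapped, at 174 to 434 CPM in HFD and 264 to 373 in shCon. Ngp, a granule protein of immature neutrophils, gave 3, 3, 4, 1 and 0 counts in the 5 HFD libraries and 90, 956, 465 and 528 in the 4 shCon libraries, which is 0.164, 0.164, 0.221, 0.055 and 0 CPM in HFD and 4.72, 46.8, 22.6 and 24.8 in shCon. The granule genes Camp, Ltf, Elane and Mpo were also called, with shCon means of 2.38 ± 1.97, 7.42 ± 4.59, 2.85 ± 1.84 and 7.09 ± 4.71 CPM (SD, n = 4), where HFD libraries had 0 to 0.055, 0 to 0.164, 0 to 0.162 and 0 to 0.545 CPM. Replicate 1 had the least of each in shCon. Ngp, Camp, Ltf, Elane and Mpo averaged at least 1 CPM over the 2 group means only through the shCon libraries. The filter thus favoured a higher call for them, and 6 of 15 cannot be weighed against 7.41%. Other members overlapped. S100a9, a calcium-binding protein of neutrophils, was at 1.64, 5.64, 0.386, 0.720 and 3.19 CPM in HFD and 2.25, 23.2, 17.04 and 14.1 in shCon, and Cxcr2 and Mmp9 overlapped at ratios of 0.24 and -0.27. The receptor Csf3r was the sixth called gene (13.96 to 20.4 CPM in HFD and 37.7 to 44.3 in shCon). Of 8 monocyte genes 4 were called higher, among them Ly6c2, Plac8 and Ifitm6. The sum of the list lay the other way, at 3899.7 to 4816 CPM in HFD and 2361 to 3645 in shCon without overlap, and most of it was fibronectin (Fn1, -0.78). The chitinase-like Chil3 had a ratio of -1.55 with overlap, and Ccr2, the monocytes' chemokine receptor, was at 80.0 ± 18.3 CPM in HFD and 85.9 ± 14.9 in shCon. Ly6c2, a surface protein of inflammatory monocytes, was at 8.72, 10.1, 17.5, 12.3 and 8.12 CPM in HFD and 49.8, 69.7, 65.5 and 34.3 in shCon.

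Dendritic cell genes were called in 4 of 12 cases (Flt3, Cd209a, Siglech and Batf3, each under 5 CPM on average), or 8 without HFD replicate 4. Of 12 chemokine and cytokine genes that averaged at least 1 CPM over the 2 group means, 5 were called higher: Ccl3, Ccl4, Cxcl1, Cxcl12 and Tnf. Tumour necrosis factor (Tnf) was at 1.58, 1.70, 1.88, 2.10 and 2.11 CPM in HFD and 3.93, 7.58, 6.23 and 4.93 in shCon, and Cxcl12, the ligand of Cxcr4, at 27.0, 36.9, 11.2, 14.5 and 28.0 CPM in HFD and 39.3, 69.0, 69.7 and 104 in shCon. The groups did not overlap in either. The monocyte chemokine Ccl2 and the macrophage growth factor Csf1 overlapped (0.21 and -0.03). Interferon-stimulated genes were called in 2 of 21 cases, Irf7 and Zbp1, against 7.41% of all genes, and all 21 ratios were positive, with a median of 0.53. Irf7, the amplifier of type I interferon, was at 98.9, 79.9, 100.4, 74.4 and 86.4 CPM in HFD and 269, 319, 268 and 164 in shCon, and shCon replicate 4 was the lowest of its group. Zbp1 was no longer called without shCon replicate 1 or 2, and with RLE factors 4 genes were called.

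**Figure D4:**
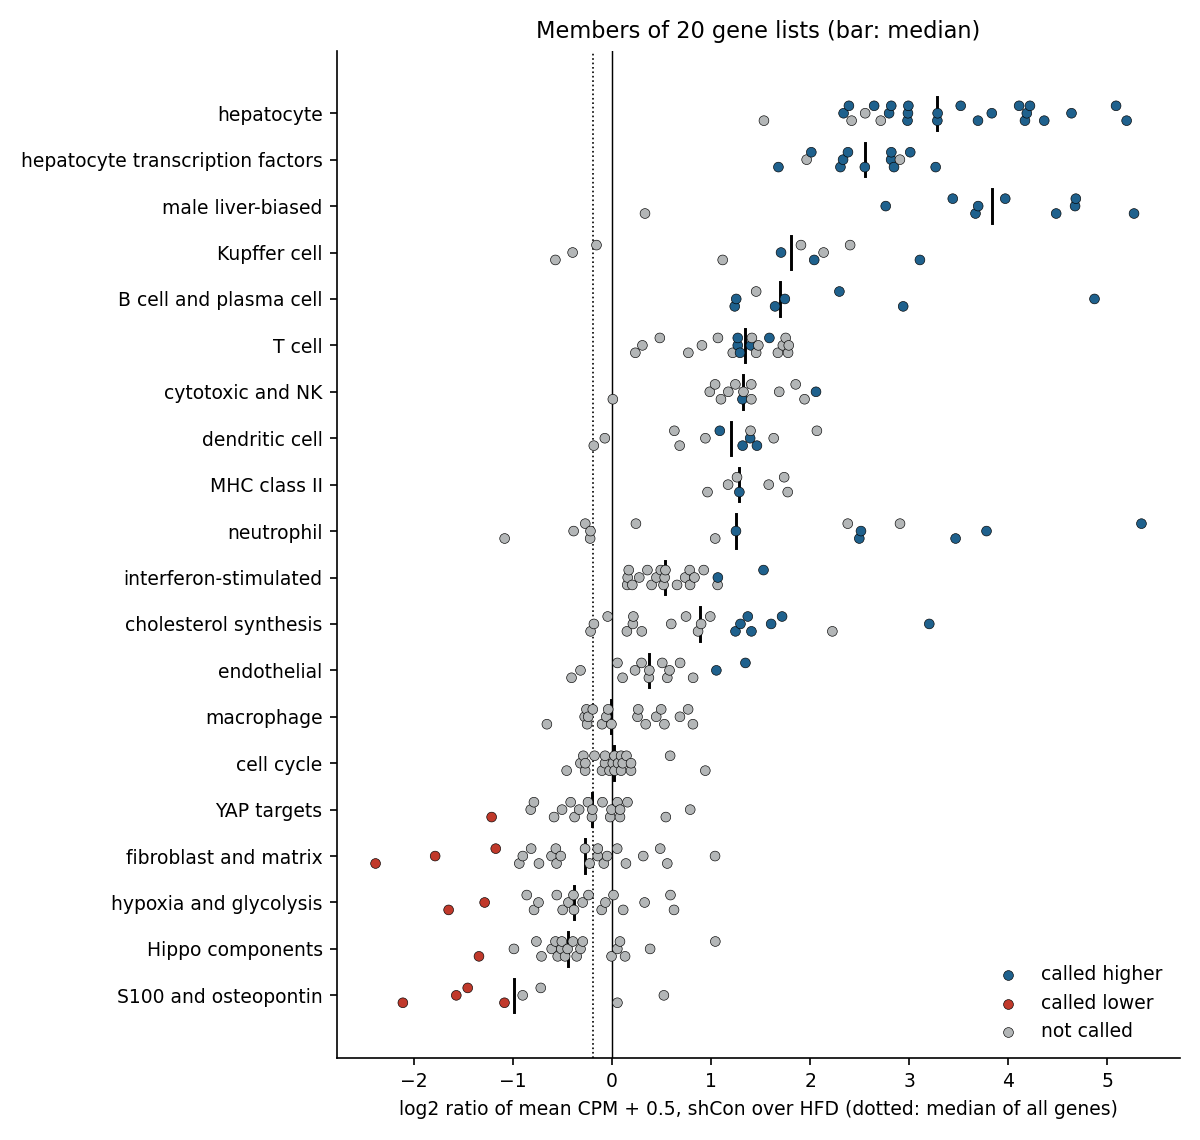
Each point is a gene of 1 of 20 lists, placed by its log2 ratio of shCon over HFD, with called genes in blue (higher) and red (lower), a bar at the list median and a dotted line at the median of all genes, -0.19. Hepatocyte members lie between 1.53 and 5.19, macrophage and cell cycle members straddle 0, and 4 of 8 S100 and osteopontin genes are called lower.

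The S100 and osteopontin list was lower in shCon. Of 8 genes of the S100 and osteopontin list, 4 were lower in shCon and 0 higher, against 3.92% of all genes, and the median ratio was -0.99. S100a4, a calcium-binding protein linked with metastasis (chr3:90603771-90606045, plus strand), was at 631, 696, 709.8, 639.8 and 644 CPM in HFD and 174, 149, 159.7 and 131 in shCon. Each group was tight and they lay 4.32-fold apart. LFD libraries had 24.3, 64.3, 35.7, 43.0 and 157 CPM and shYap libraries 232, 150.5, 140.4 and 150.2, so HFD was above all 13 others. Osteopontin (Spp1, chr5:104435118-104441050, plus strand), a secreted ligand of integrins and CD44, was at 1235, 1332, 1274, 1452 and 1222 CPM in HFD and 422, 438, 474 and 416 in shCon, 2.98-fold lower. S100a6 was at 2475 to 3264 CPM in HFD and 760.2 to 1156 in shCon. S100a11 ran the other way without being called (0.52), and galectin 1 (Lgals1) was level (0.05). S100a13, at a ratio of -1.09, was no longer called with TMM or RLE factors.

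Fibroblast and matrix genes were lower in 3 of 23 cases, against 3.92% of all genes, with a median of -0.27 close to that of all genes. The sum of the list was 15560.1, 16808, 17279.6, 17796 and 19748 CPM in HFD and 13412, 13811, 13663 and 11111 in shCon. It did not overlap, but with TMM and RLE factors the mean log2 level did. Tenascin C (Tnc), an adhesion-modulating matrix protein, was at 107, 121, 184, 169 and 110.4 CPM in HFD and 31.5, 48.4, 44.9 and 33.8 in shCon. Col1a2 and Col1a1, which encode the chains of the same collagen, diverged: Col1a2 was at 452, 572, 335, 393 and 628 CPM in HFD and 196, 243, 216 and 186 in shCon, a ratio of -1.17, and Col1a1 at 1018, 1175, 846, 827 and 1343 CPM in HFD and 1448, 1645, 1294 and 1449 in shCon, a ratio of 0.49. Col1a2 lost its call with RLE factors. Collagen Col3a1, the most abundant of the list, was at 4530.0 to 6148 CPM in HFD and 2448 to 3296 in shCon without reaching 2-fold. Pi16, a marker of adventitial fibroblasts, had 16.8 ± 5.39 CPM in HFD and 2.81 ± 0.918 in shCon, and the activated fibroblast genes Fap and Postn had ratios of 0.31 and 0.56.

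Without shCon replicate 4, Thy1, a surface protein of fibroblasts and T cells, was called higher, as 1 gene was with TMM or RLE factors. Smooth muscle and pericyte genes gave 2 of 11 lower, Cnn1 and Cspg4, and smooth muscle actin (Acta2) was at 55.9 ± 13.5 CPM in HFD and 52.0 ± 11.03 in shCon. Cspg4 was no longer called without shCon replicate 1 or with TMM or RLE factors. The mean log2 level of that list was lower by 0.14 in the plain total and higher by 0.011 and 0.033 with TMM and RLE factors.

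Vessel genes were mixed. The sum of 15 endothelial genes was 289.7, 336, 264, 288 and 336 CPM in HFD and 457, 454, 492 and 423 in shCon, without overlap. Of the 15 genes 2 were called higher, against 7.41% of all genes. Plvap, the diaphragm protein of fenestrated capillaries, was at 33.0, 38.5, 19.3, 20.99 and 39.6 CPM in HFD and 72.6, 82.3, 73.6 and 82.5 in shCon, and the TGF-beta co-receptor endoglin (Eng) at 56.4, 64.0, 44.3, 44.6 and 56.2 CPM in HFD and 106, 112, 104 and 121 in shCon. Eng was no longer called without HFD replicate 3 or 4, its lowest. Pecam1, present in all endothelium, was at 29.4 ± 6.25 CPM in HFD and 30.6 ± 6.18 in shCon. Of 9 genes of liver sinusoidal endothelium 4 were higher: Clec4g, Gpr182, Dnase1l3 and Bmp2. Bmp2, a signal from these cells to hepatocytes that controls hepcidin (chr2:133552159-133562885, plus strand), was at 6.597, 9.87, 10.8, 15.9 and 6.77 CPM in HFD and 33.0, 31.4, 32.8 and 28.4 in shCon. In LFD it was at 9.46, 3.61, 6.82, 5.20 and 15.2 and in shYap at 10.1, 17.5, 21.3 and 23.8, so shCon was the group that stood apart. Stabilin 1 (Stab1), which tumour macrophages share, lay below the HFD range (509.7, 499, 451, 417 and 467 CPM in HFD and 254, 257, 292 and 339 in shCon).

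**Figure D5:**
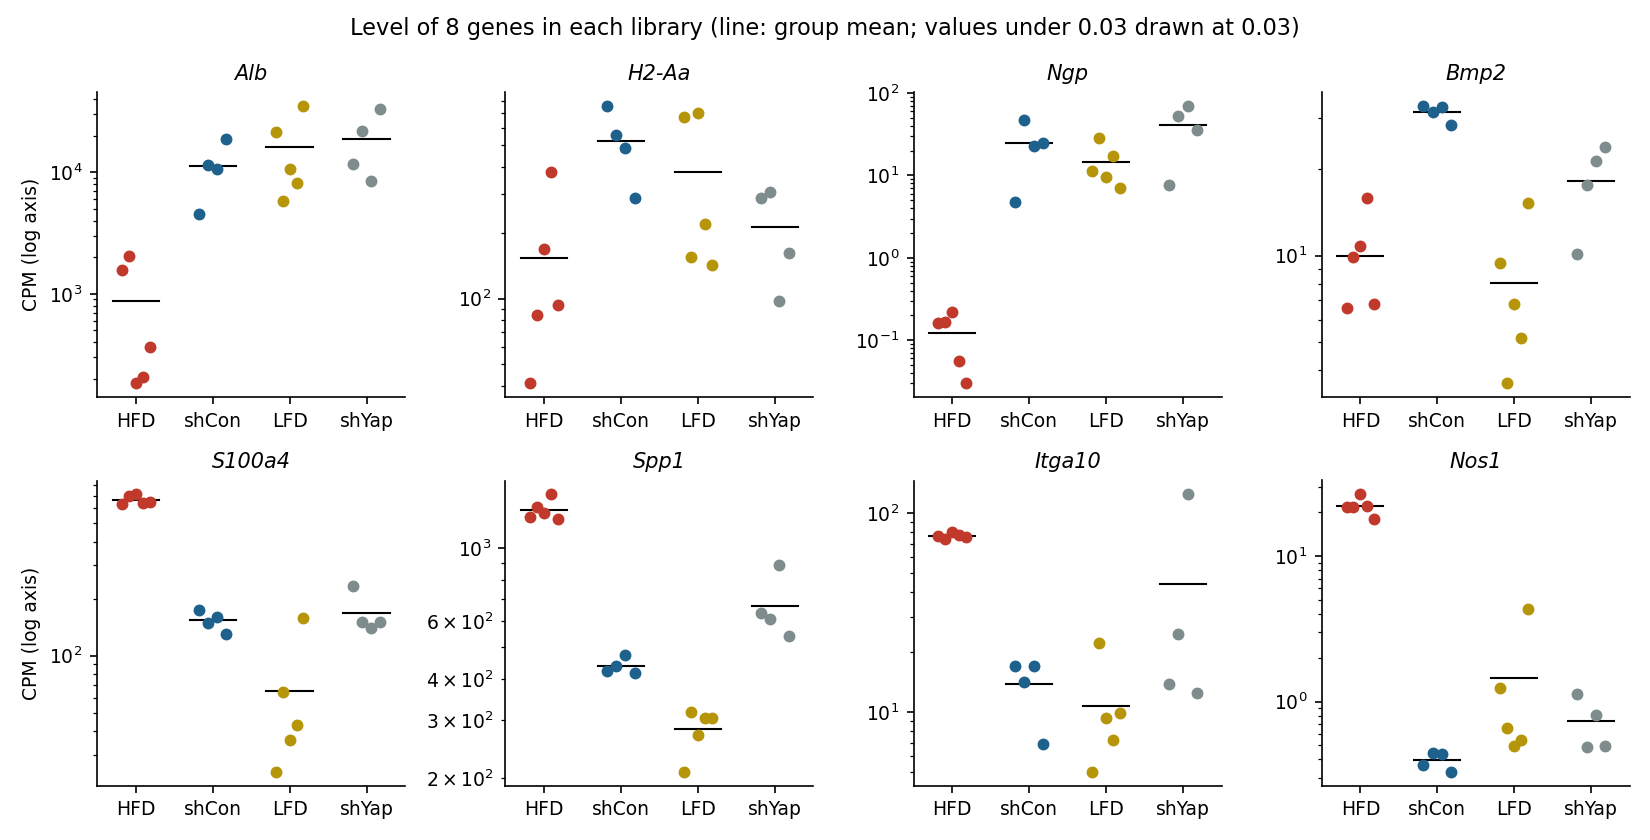
CPM of 8 genes in each library, on log axes, with a line at each group mean. Alb, Ngp and Bmp2 are higher in all 4 shCon than in all 5 HFD libraries, H2-Aa overlaps through HFD replicate 4 and shCon replicate 4, and S100a4, Spp1, Itga10 and Nos1 are lower in shCon.

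Epithelial adhesion genes were low in both groups. Epcam, the epithelial adhesion molecule, was at 1.04, 1.75, 0.662, 0.609 and 1.46 CPM in HFD and 0.682, 1.22, 0.584 and 2.35 in shCon, and Cdh1 at 2.59 to 8.33 CPM in HFD and 6.24 to 32.3 in shCon. Keratin 8 (Krt8) was at 264, 297, 198, 191 and 196 CPM in HFD and 56.5, 138, 79.5 and 185 in shCon, just below the HFD range. Its partner Krt18 overlapped, at 78.3, 79.2, 10.1, 9.47 and 19.8 CPM in HFD and 59.8, 148, 84.0 and 170.4 in shCon. Both keratins, like Cdh1, are also expressed in hepatocytes. Cldn4, a tight junction protein, was the called member, at 3.37 ± 1.05 CPM in HFD and 0.826 ± 0.227 in shCon (SD, n = 5 and 4), and 2 of the list were lower without HFD replicate 3, 4 or 5 or without shCon replicate 2 or 4, Krt8 being the second. Cdh1 was called higher without HFD replicate 2, and Cdh1 and Krt18 without shCon replicate 1. Mesenchymal genes were abundant in both: vimentin (Vim) was at 2899, 2995, 2839, 2812 and 3104 CPM in HFD and 2938, 2758, 2649.7 and 1881 in shCon. Of 15 mesenchymal transition genes 1 was called lower, the homeobox factor Prrx1 (151, 151, 168, 171 and 165 CPM in HFD and 91.8, 75.5, 86.1 and 60.0 in shCon). It lost the call with TMM and RLE factors, with the total without the most abundant genes and without shCon replicate 4. The mean log2 level of that list was lower by 0.13 in the plain total and higher by 0.042 and 0.066 with TMM and RLE factors, so its direction depends on the scaling. Fibronectin (Fn1), also made by hepatocytes, was at 3137 to 3828 CPM in HFD and 1565 to 2977 in shCon.

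Most components of the Hippo pathway were lower in shCon by less than 2-fold in the plain total. In shCon 15 of 21 lay below the HFD range, against 36.9% of all genes, and 1 was called, with a median of -0.45. Yap1 itself (chr9:7931999-8004596, minus strand) was at 113, 110.1, 112, 104 and 107 CPM in HFD and 81.8, 84.5, 77.6 and 75.0 in shCon, a ratio of -0.45, and its paralogue Wwtr1 at 200.2, 201, 207, 205 and 205 CPM in HFD and 137, 120.3, 149 and 89.7 in shCon, a ratio of -0.71. Both sets were without overlap and under 2-fold. The called gene was angiomotin (Amot, chrX:145446425-145505181, minus strand), a scaffold that binds YAP, at 234, 256, 251, 253 and 231 CPM in HFD and 86.7, 73.7, 92.1 and 132 in shCon. Lats2, a kinase of the cascade, was at 44.5 ± 1.86 CPM in HFD and 44.4 ± 1.95 in shCon. Leaving out HFD replicate 4 or shCon replicate 1 or 4 gave 2 lower members in place of 1, the second being Tead4, a DNA-binding partner of YAP. Without shCon replicate 1, Wwc1 was higher. With TMM and RLE factors the mean log2 level of the list was lower by 0.18 and 0.15, against 0.35 in the plain total. YAP target genes were lower in 1 of 20 cases (Foxf2), against 3.92% of all genes. Their median of -0.20 was close to the -0.19 of all genes. Ccn1, a matrix protein widely used as a YAP target, was at 75.8, 72.1, 50.8, 56.3 and 71.8 CPM in HFD and 168, 112, 79.2 and 93.5 in shCon. Its relative Ccn2 was at 27.6, 29.4, 6.67, 10.8 and 19.1 CPM in HFD and 24.8, 17.4, 8.76 and 26.8 in shCon. Ccn1 was thus higher in each shCon library without reaching 2-fold, and Ccn2 overlapped.

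Proliferation genes were alike. None of 22 cell cycle genes was called and the median was 0.02. Mki67, present in all dividing cells, was at 436, 439, 382, 403 and 399 CPM in HFD and 432, 428, 433 and 362 in shCon. Leaving out HFD replicate 1 or 5 gave 1 higher cell cycle gene, Ccne1. The 13 genes of the unfolded protein response had a median of 0.11 with 0 called, and 13 Hox genes had -0.20 with 0 called, among them Hoxc10 at 79.1 ± 5.09 CPM in HFD and 83.7 ± 9.72 in shCon. The mean log2 level of the Hox list was lower by 0.050 in the plain total and higher by 0.083 and 0.10 with TMM and RLE factors. Of 19 hypoxia and glycolysis genes 2 were lower, Ankrd37 and Ndrg1, against 3.92% of all genes. Ndrg1 was at 78.9, 106, 93.9, 105 and 98.6 CPM in HFD and 35.0, 33.8, 35.1 and 53.2 in shCon, while the lactate dehydrogenase Ldha overlapped (0.11). Among imprinted genes Peg3 was higher (1.35 to 3.38 CPM in HFD and 7.09 to 11.7 in shCon) and Meg3 lower (4.19 to 20.5 CPM in HFD and 1.42 to 2.92 in shCon). Without HFD replicate 4 or shCon replicate 4 the fetal liver protein Afp was lower as well.

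Immediate early genes, which respond within minutes to stress and handling, were higher in 4 of 12 cases: Fosb, Atf3, Nr4a1 and Zfp36. Zfp36, a protein that destabilises cytokine RNA, was at 49.7, 45.3, 47.5, 49.6 and 41.8 CPM in HFD and 194, 127, 78.1 and 144 in shCon. shCon replicate 1 was highest in it, and without that library Fosb and Nr4a1 were no longer called, nor was Nr4a1 without HFD replicate 3 or 4. Jun overlapped between the groups. Mitochondrially encoded genes summed to 55327, 60559.8, 57768, 62039 and 60220.2 CPM in HFD and 102735, 79310.5, 76920.5 and 69907 in shCon. Of the 13 genes 2 were called higher, mt-Nd6 and mt-Atp8, against 7.41% of all genes. Nuclear genes of oxidative phosphorylation had a median of -0.25, close to that of all genes. In shCon 6 of 14 lay below the HFD range, against 36.9% of all genes, and 1 was called lower, Ndufv1, a call lost with TMM and RLE factors. In 5 of the 14, Ndufv1 included, all 8 libraries of the shCon table lay below all 10 of the HFD table, against 1.39% of all genes.

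The largest ratios upwards were mainly of genes of the liver. Apart from predicted genes, pseudogenes and receptor segments, and among genes of at least 5 CPM, the 12 largest were Mup11, Mup14, Cyp1a2, Serpina1e, Serpina6, Mup19, Mup15, Sult2a8, Mup7, Car3, Mup22 and Mup1, from 6.83 down to 5.58 with 0.5 CPM added to each mean. With 0.1 CPM added, the ratios of Cyp1a2, Serpina6, Sult2a8 and Mup1 went from 6.45, 6.28, 5.81 and 5.58 to 7.29, 7.24, 6.75 and 6.24. The others of the 12 moved less. The major urinary proteins (Mup) are pheromone carriers made by the liver of male mice. They are near-identical copies, as are the Serpina1 genes, so counts of single members are uncertain, and only the family is described: 20 Mup genes summed to 379.8, 467, 52.6, 58.0 and 119 CPM in HFD and 4082, 4847, 3905 and 8811 in shCon. Corticosteroid-binding globulin (Serpina6) was at 0.382, 0.164, 0.110, 0.332 and 0.595 CPM in HFD and 54.1, 61.5, 65.9 and 71.1 in shCon, and carbonic anhydrase 3 (Car3) at 3.60, 2.58, 1.38, 0.941 and 3.57 CPM in HFD and 95.2, 101, 98.6 and 314 in shCon. All HFD values of these genes were below every shCon value.

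The largest ratios downwards were of unlike genes: Dmbt1, Nos1, Nphs1, Rpl23a, Fau, F13a1, Angptl7, Ly6c1, Mt1, Fsd1l, Itga10 and Fbn2, with ratios of -4.66 for Nos1 and -2.43 for Fbn2. Dmbt1, a mucosal scavenger protein, was at 20.7, 27.8, 1.27, 0.886 and 126 CPM in HFD, with replicate 5 far above the rest, and gave 0, 2, 2 and 1 counts in shCon, so no fold is given. Nos1, the neuronal nitric oxide synthase (chr5:117781032-117958840, plus strand), was at 21.97, 21.9, 26.6, 22.2 and 18.03 CPM in HFD and 0.367, 0.440, 0.438 and 0.329 in shCon. Both groups were narrow. Since the shCon values are below the 0.5 CPM added, the log2 ratio of -4.66 depends on it, and was -5.49 with 0.1 CPM added. LFD and shYap libraries had 0.495 to 4.34 and 0.490 to 1.13 CPM. Itga10, the alpha chain of a collagen receptor (chr3:96645584-96664519, plus strand), was at 76.5, 74.0, 80.3, 77.1 and 75.8 CPM in HFD and 17.1, 14.2, 17.04 and 6.90 in shCon. In shYap it was at 13.9, 24.6, 124 and 12.5, so 1 library of that group exceeded HFD. F13a1, the A chain of clotting factor XIII that macrophages also make, was at 171, 192, 174, 142 and 153 CPM in HFD and 8.13, 12.8, 24.1 and 49.2 in shCon, against 138 ± 169 in LFD. The fibrillin Fbn2 was at 16.2, 18.2, 13.3, 13.6 and 16.8 CPM in HFD and 1.52, 2.40, 3.94 and 2.11 in shCon, Ly6c1, a surface protein of endothelium and lymphocytes, at 111 to 228 CPM in HFD and 19.2 to 36.6 in shCon, and the metal-binding Mt1 at 149 to 231 CPM in HFD and 22.1 to 48.0 in shCon. Nos1, F13a1, Angptl7 and Fbn2 overlap other annotated genes on the opposite strand. Since no source used here gives the libraries' strand, reads of such pairs cannot be separated. On the same strand, Nos1 overlaps Gm37028, Fsd1l overlaps Gm12470 and Itga10 overlaps Gm42957. S100a4 and Spp1, described above, overlap Gm42674 and Gm42793 on the same strand, and strand would not separate such reads.

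In some genes all 18 libraries split by table. CT010467.1, annotated as ribosomal RNA (chr17:39846353-39848827, minus strand) and singled out after its values were seen, was at 1.36, 0.548, 0.717, 0.997 and 1.52 CPM in HFD and 1264, 1304, 2239 and 631 in shCon. LFD libraries had 1.18, 1.31, 0.880, 1.37 and 0.889 and shYap libraries 842, 1142, 846 and 1974, so all 8 libraries of one table lay far above all 10 of the other. Gm42418, which overlaps it, and Gm26917 did the same, at 0.110 to 0.717 and 0.055 to 0.379 CPM in HFD and 45.3 to 169 and 100.1 to 207 in shCon. Lars2, the mitochondrial leucyl-tRNA synthetase, went with them: 15.5, 13.5, 13.2, 14.5 and 14.6 in HFD and 55.0, 65.9, 163 and 40.9 in shCon, highest in shCon replicate 3, as for CT010467.1. By the same rule as above, the largest such splits upwards were in Ifi208, Hist1h2ao, Lars2, Igsf9b, Fam83g, Lmx1b, Saa3, Cenpv, Ebi3 and Chrna1. Ifi208, an interferon-inducible member of a family of near copies, was at 0.273, 0.110, 0.386, 0.554 and 0.271 CPM in HFD and 14.5, 19.2, 18.2 and 10.3 in shCon. Downwards they were in Nphs1, Rpl23a, Fau, Fsd1l, Tmem64, D3Ertd751e, Cystm1, Park7, Tmem79 and Lyrm9. The ribosomal protein gene Rpl23a, which overlaps Tlcd1 and small nucleolar RNA genes, was at 70.7, 75.3, 95.0, 93.2 and 87.4 CPM in HFD and 14.3, 10.8, 5.99 and 5.02 in shCon. Fau, which encodes another ribosomal protein, was at 63.9, 66.1, 84.1, 89.4 and 80.7 CPM in HFD and 12.8, 11.7, 9.15 and 8.87 in shCon. Against that, 87 cytoplasmic ribosomal protein genes had a median ratio of -0.24, close to all genes. Nphs1, a kidney filtration protein whose gene overlaps Nphs1os on the other strand, was at 162, 147, 176, 175 and 173 CPM in HFD and 18.6, 17.2, 19.3 and 11.1 in shCon.

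The ratio also moved with transcript composition. Over 13153 protein-coding genes with a transcript in GENCODE M21, the quintile lowest in GC content had a median log2 ratio of -0.36 and the highest quintile -0.018. By transcript length, the shortest quintile had -0.052 and the longest -0.30. GC content and length were each taken alone, so these medians set no bound for a list of genes. The part of composition in the fibroblast median, -0.27, and the Hippo median, -0.45, was not tested.

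Several smaller lists had few called genes. Of hepatic stellate cell genes 1 of 9 were higher (Ngfr), of bile duct genes 1 of 6, of adipocyte genes 1 of 3 (Plin4) and of platelet genes 0 of 4. Without HFD replicate 2 or shCon replicate 1 a second stellate gene, Colec11, was higher, and without shCon replicate 4 the bile duct keratin Krt19 was lower. The median ratio of the stellate list was 0.64. Its sum, however, lay below the HFD range, at 826 to 1209 CPM in HFD and 573 to 780 in shCon. Skeletal muscle genes summed to 0.938 to 1.69 CPM in HFD and 0.798 to 9.59 in shCon, the upper value in replicate 1. Exocrine pancreas genes summed to 6.58 to 8.01 CPM in HFD and 3.88 to 6.23 in shCon, and Cela1 made up most of it. The adipocyte gene Cfd (adipsin), chosen after its values were seen, gave 1, 0, 0, 0 and 1 counts in HFD and was at 2.78, 1.17, 1.22 and 2.39 CPM in shCon. Red cell genes summed to 73.6 to 349 CPM in HFD and 107 to 450.3 in shCon, with wide overlap. The mesothelial antigen Msln was at 226 to 259 CPM in HFD and 115 to 160.1 in shCon.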

How the data were processed

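RNA of 18 mouse liver tumours was sequenced, and the 9 of the HFD and shCon groups are described here. The authors deposited estimated counts of genes in 2 separate tables. The submitters' processing notes name STAR 2.7.3a, Partek, DESeq2 and the builds GRCm38 and mm10, without role or order. No source used here names the annotation behind the counts. Estimated counts were rounded, tables were joined on gene symbol (21 of 23 symbols turned into dates were restored) and CPM was computed over shared symbols. No test was run, since each group stands in its own table. Genes named are fixed ones, the 12 largest ratios in each direction, up to 4 most abundant and up to 4 called members with the largest ratio of each list, and the 10 largest splits by table in each direction. A few others, among them those called only on leaving out a library, were chosen after their values were seen. The members and lists were chosen with earlier results of these data known. Alternatives used edgeR 4.0.16 and DESeq2 1.42.0 factors in R 4.3.3. The remaining steps ran in python 3.11.15 with pandas 2.3.3 and were tested on simulated data. Precision is that of libraries of 18057368 to 21309950 counts, and the spread between libraries may be technical.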

Additional observations from a re-analysis of the deposited data

Results flagged for a closer look

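A sample was singled out where its gap to the nearest library of its group was large against the range of the group (Dixon's 95% value, groups of 4 and 5). Chance gives about 1 in 20 groups, and 14 of 244 groups tried were singled out, 9 of them through shCon replicate 4. The summed pericentral hepatocyte level was low in HFD replicate 5, at 271 CPM against 288 to 292 in the others. The summed fibroblast and matrix level was low in shCon replicate 4, at 11111 CPM against 13412 to 13811 in the others. The summed skeletal muscle level was high in shCon replicate 1, at 9.59 CPM against 0.798 to 2.30 in the others. The summed interferon-stimulated level was high in HFD replicate 3, at 1446 CPM against 1242 to 1299 in the others. The summed cholesterol synthesis level was high in HFD replicate 2, at 834 CPM against 699 to 711 in the others. The summed fatty acid synthesis level was high in shCon replicate 4, at 5946 CPM against 1538 to 1858 in the others. The summed male liver-biased level was high in shCon replicate 4, at 4492 CPM against 1034 to 1606 in the others. Car3 was high in shCon replicate 4, at 314 CPM against 95.2 to 101 in the others. Dmbt1 was high in HFD replicate 5, at 126 CPM against 0.886 to 27.8 in the others. Igkc was high in shCon replicate 4, at 223 CPM against 36.8 to 49.7 in the others. Mki67 was low in shCon replicate 4, at 362 CPM against 428 to 433 in the others. Ndrg1 was high in shCon replicate 4, at 53.2 CPM against 33.8 to 35.1 in the others. Scd1 was high in shCon replicate 4, at 3285 CPM against 226 to 308 in the others. Timd4 was high in shCon replicate 4, at 9.01 CPM against 1.94 to 2.74 in the others.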

How the results depend on the processing

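No paired analysis was possible because the groups stand in separately quantified tables and no result comes from a test. The count of lower genes, 599, was 353 with TMM factors, 329 with RLE factors, 399 among genes of at least 5 CPM, 2589 at 1.5-fold and 48 at 4-fold. The count of higher genes, 1133, was 565 at 4-fold. Leaving out 1 library gave 1126 to 1312 higher and 582 to 706 lower genes, and summing the close HFD pairs gave 1211 and 611. The difference in mean log2 level reversed for the mesenchymal transition list, to 0.042 with TMM and 0.066 with RLE factors. It moved for macrophages (0.29 and 0.32), Hippo components (-0.18 and -0.15, and -0.29 with the total without genes over 0.5% of counts), S100 and osteopontin (-0.75 and -0.73), and fibroblasts (-0.23 with RLE factors). For B cells it was 2.36 with a pseudocount of 0.1 CPM. Median rho between the groups was 0.885 among genes of at least 5 CPM. Beyond the scaling itself, the cause of these shifts was not tested. Of the 153 called genes among the 319 that the naming rule gives, 4 lost the call with TMM and 5 with RLE factors. At a minimum of 5 CPM 32 lost it, and at 4-fold 76 did. None reversed in any of these settings. The rule favours called genes with large ratios, so the 153 do not stand for all called genes. Among all genes the lower calls fell from 599 to 353 and 329 with TMM and RLE factors.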
